A study of Mus musculus with 5 samples.

Results

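The genes described here encode the channels, pumps and exchangers that move potassium, calcium and sodium across the membranes of lung fibroblasts, measured by RNA-Seq after deletion of Igf1r. They were selected on their symbols (the Kcn, Cacn, Scn, Slc8a, Atp1 and Atp2 pump, Trpc, Trpm, Trpv, Ryr, Itpr, Orai and Stim families) and on a measured value, at least 100 counts summed over all 5 libraries, which does not use the difference between genotypes. Of 190 symbols of these families, 114 reached that sum, among 23478 genes in the table. Another 76 were below it, 8 of them with 0 counts in every library. Just outside the limit were Kcns2 (88 counts), Kcnf1 (97) and Cacng4 (98), and just inside it were Kcnj10 (114) and Cacng5 (118). The symbols also caught 3 loci that are not channels, Kcnq1ot1, a long noncoding RNA, Kcnrg, a channel regulator, and Trpc4ap, a protein that binds a TRP channel.

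The study asked whether IGF1R in GLI1 lineage fibroblasts is needed for formation of alveoli. RNA came from GFP-positive cells sorted from whole lungs on P6. The 2 control libraries were from mice of genotype Igf1r Flox/Wildtype and the 3 Igf1r-deleted libraries from mice of genotype Igf1r Flox/Flox. All 5 carried Gli1creER, a Cre recombinase that tamoxifen activates in cells with Gli1 promoter activity, and the Rosa-EGFP reporter, and both groups were given 100 µg of tamoxifen per pup on P0 and again on P1. Controls can therefore lose 1 copy of Igf1r and are not wild type. GFP marks cells in which Cre was active, together with their progeny, and the paper's methods name a mixed strain background and both sexes. The number of pups behind a library is not given in the sources used here, so p-values measure the spread between these libraries, which may be technical.

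Contraction of a myofibroblast begins when calcium enters through channels of the cell surface or leaves the endoplasmic reticulum through IP3 receptors and ryanodine receptors. Calmodulin then activates myosin light chain kinase, and relaxation follows as pumps return calcium to the reticulum and as plasma membrane pumps and sodium/calcium exchangers push it out of the cell. The sodium/potassium pump maintains the sodium gradient that the exchangers use, and potassium channels set the membrane potential that opens or closes voltage-gated calcium channels.

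Igf1r itself was at 324 CPM in both control libraries and at 140, 177 and 194 CPM in the Igf1r-deleted libraries (CPM gives a count relative to the TMM-corrected size of its library), so the labels and the deleted gene go the same way. Library totals were 35116766 to 37597857 counts. All 7 myofibroblast markers examined were detected, with a summed level of 3964 and 4089 CPM in controls and 4057 to 4567 CPM after deletion. That sum covers opposite moves. By edgeR's quasi-likelihood test at an unadjusted p-value under 0.05, Acta2 (log2 fold change 0.78) and Tagln (0.59) were higher and Hhip (-0.47) lower. Of 6 matrix fibroblast and lipofibroblast markers, Slc7a10 (0.51) was higher and Tcf21 (-0.57) lower. Their part in the values of channel genes was not tested. Markers of other cells were present too and moved between libraries. The 5 smooth muscle markers summed to 299 and 452 CPM in controls and to 457 to 650 CPM after deletion, the 7 epithelial markers to 804 and 822 against 389 to 893 CPM, the 5 endothelial markers to 428 and 436 against 204 to 629 CPM, and the 6 leukocyte markers to 332 and 496 against 169 to 395 CPM. Nerve and glia markers were near the detection limit (7.49 to 16.1 CPM in sum over 6 genes), and Hbb-bs of red cells was at 0 in all 5. In such sorted bulk samples, fewer cells of a type and less RNA per cell cannot be told apart.

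Most of these genes did not pass an unadjusted test between the genotypes, and single genes of several families did. All 114 genes passed edgeR's filter on low counts and were tested with the other genes. An unadjusted p-value under 0.05 in edgeR's quasi-likelihood test was reached by 13 of them, or 11.4%, where 12.4% of the 15298 genes tested reached it. Of these, 8 were lower after deletion (background 6.75%), namely Atp1b1, Itpr3, Kcna2, Scn7a, Kcnk5, Kcnn4, Trpm3 and Atp2a3, and 5 were higher (background 5.65%), namely Kcnk3, Slc8a3, Cacna1a, Kcnh2 and Ryr3. The share of channel and pump genes called was therefore near that of all genes and is no result about them as a group. Slc8a3, Atp2a3, Atp1b1 and Kcnk3 are also among the contraction genes that the study picked for display from these same libraries, so their direction is not independent evidence.

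After Benjamini-Hochberg adjustment over all genes, no channel or pump gene had a p-value under 0.05 in edgeR's quasi-likelihood test, and neither did any of the other genes (background 0.0%). The adjusted p-values of the 13 were 0.354 to 0.398 by that test. Igf1r, the deleted gene, also did not pass it, with an adjusted p-value of 0.354 by edgeR's quasi-likelihood test and 1.06e-05 by DESeq2's Wald test. DESeq2's Wald test gave an adjusted p-value under 0.05 to 2 of the 114, Atp1b1 (adjusted p = 0.0327 by DESeq2) and Kcnk3 (adjusted p = 0.0197 by DESeq2), or 1.75% against 1.31% of all genes, and limma voom gave it to 0. A stricter rule on size and level, taken from the study's methods (absolute log2 fold change of at least 0.5, unadjusted p-value under 0.05 and a level over 1, here in CPM) was met by 10 genes, or 8.77%, against 5.83% of all genes. Libraries of the 2 groups did not overlap for 25 genes, 15 lower and 10 higher after deletion. That is 21.9%, against 31.0% of all genes (14.9% lower and 16.0% higher).

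The median log2 fold change over the 114 genes was 0.037, beside 0.015 over all genes tested. An absolute log2 fold change under 0.2 was found for 56 of the 114, one of 0.5 or more for 23, and one of 1 or more for 5. The last were Kcnn4, Trpm3, Kcna2 and Slc8a3, which are among the 13, and Cacna2d3, an auxiliary calcium channel subunit at 0.23 to 1.70 CPM whose fold of 1.46 had an SE of 0.84 and did not pass the test. By ion, 30 of 51 potassium channel genes, 22 of 33 calcium genes and 5 of 9 sodium channel genes had a fold above 0, as had 4 of 11 TRP channel genes and 0 of 7 subunits of the sodium/potassium pump, beside 7997 of all 15298 genes. The median of the pump subunits was -0.06, and 0.02 with library totals in place of TMM, so their direction depends on the scaling.

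**Figure D1:**
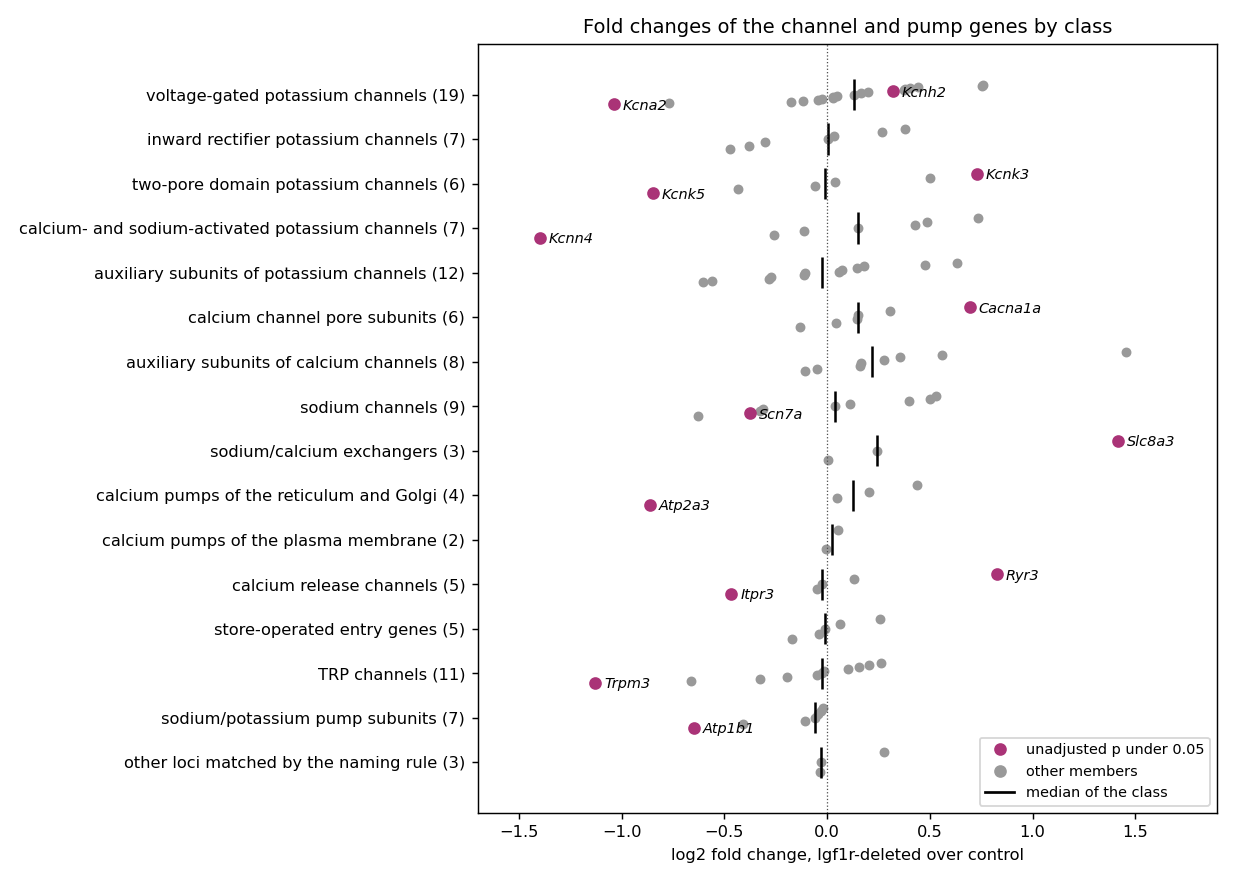
Log2 fold change (Igf1r-deleted over control, horizontal axis) of the 114 channel and pump genes, in rows by class with the number of genes in parentheses. Each point is a gene, purple points have an unadjusted p-value under 0.05, and the black bar is the median of the class. Class medians lie between -0.06 and 0.24, with single genes such as Kcnn4 and Slc8a3 far to either side.

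Levels of different genes were compared per kilobase of exon. Kcne4, an auxiliary subunit that inhibits voltage-gated potassium channels, was the most abundant at a mean of 104 CPM per kb. Other abundant genes were Atp2a2 (51.8), the housekeeping calcium pump of the reticulum, Atp1b3 (47.1), a beta subunit of the sodium/potassium pump, and Kcnk3 (46.3), a leak channel. They were followed by Scn7a (34.2), a sodium channel relative that senses extracellular sodium, and Kcnj8 (33.0), the pore of an ATP-sensitive potassium channel. Of these 6 genes, Kcnk3 and Scn7a passed the unadjusted test.

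Calcium entry was examined first. The L-type pore genes were close to equal in level in the 2 genotypes. Cacna1d, the pore of an L-type channel, was at 286 and 306 CPM in controls and at 258, 266 and 287 CPM after deletion, a log2 fold change of -0.13 with a 95% interval from -0.37 to 0.10. Cacna1c, the L-type pore of smooth and cardiac muscle, was at 74.1 and 84.2 CPM in controls and 80.5, 90.9 and 91.6 CPM after deletion (log2 fold change 0.15, interval -0.11 to 0.41). The libraries of the genotypes overlapped for both genes, and both intervals exclude a log2 change of 0.5 in either direction. Per kilobase, Cacna1d made up 85.9% to 86.7% of the L-type pore level in controls and 83.1% to 84.4% after deletion.

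Cacna1a, the P/Q-type pore known from nerve terminals, was rarer. It was at 3.34 and 3.36 CPM in controls and 4.22, 6.74 and 5.29 CPM after deletion, higher in all 3, with a log2 fold change of 0.69 (SE 0.26, unadjusted p = 0.0301). No other pore subunit passed the test, and neither did any of the 8 auxiliary subunits. Cacnb3, the most abundant auxiliary subunit per kb and a chaperone of the pore, was at 72.1 and 79.8 CPM in controls and 73.8, 106 and 95.9 CPM after deletion, so the ranges overlapped. The genes of store-operated entry, in which STIM proteins sense an empty reticulum and open ORAI channels, also did not pass. Stim1 had a log2 fold change of -0.17 (interval -0.43 to 0.09) with every deleted library below both controls, and Orai1 one of -0.04 (interval -0.32 to 0.24). Orai3, the most abundant of these per kb, was at 35.7 and 38.7 CPM in controls and 37.8 to 40.5 CPM after deletion.

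TRP channels pass several cations and respond to receptors, stretch, heat or magnesium. Trpc1 (log2 fold change -0.03, SE 0.13) and Trpc6 (-0.01, SE 0.30), receptor-operated channels, and Trpm7 (-0.05, SE 0.10), the most abundant of the 11 per kb and a channel fused to a kinase, did not pass the test. Trpm3, a channel opened by heat and neurosteroids, was at 1.12 and 1.01 CPM in controls and 0.340, 0.503 and 0.612 CPM after deletion. That was a log2 fold change of -1.13 (SE 0.45, unadjusted p = 0.0392), with all deleted libraries below the controls but with only 12 to 39 counts in a library.

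For calcium release, IP3 receptors carried most of the level, and the dominant one differed little. Itpr1 was at 155 and 157 CPM in controls and 150, 148 and 153 CPM after deletion, a log2 fold change of -0.05 (SE 0.09). Although the groups did not overlap, that difference did not pass the test. Itpr2 had a log2 fold change of -0.03 (interval -0.28 to 0.22).

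Itpr3, the subtype best known from epithelia, was at 25.8 and 20.5 CPM in controls and 17.2, 17.3 and 15.8 CPM after deletion. All deleted libraries were below the controls, with a log2 fold change of -0.47 (SE 0.14, unadjusted p = 0.0102). Its share of the IP3 receptor level per kb was 19.3% and 16.0% in controls and 14.4%, 14.4% and 12.7% after deletion. Ryanodine receptors, the release channels of muscle, were scarce. Ryr3 was at 2.16 and 1.88 CPM in controls and 2.52, 4.22 and 4.01 CPM after deletion, higher in all 3 (log2 fold change 0.83, SE 0.31, unadjusted p = 0.0328). Ryr2, the cardiac form, was at 0.81 to 1.72 CPM with overlapping groups.

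For calcium removal, 2 of the 9 exchanger and pump genes passed the unadjusted test, Slc8a3 and Atp2a3, and the most abundant member of each family did not. Slc8a1, the main sodium/calcium exchanger, was at 225 and 271 CPM in controls and 289, 228 and 228 CPM after deletion, a log2 fold change of 0.0028 with an interval from -0.34 to 0.35. The plasma membrane pumps Atp2b1 (-0.0048, interval -0.26 to 0.25) and Atp2b4 (0.05, interval -0.24 to 0.34) were as close. Atp2a2 was at 261 and 317 CPM in controls and 308, 343 and 346 CPM after deletion (0.20, interval -0.09 to 0.49), with overlapping groups.

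Slc8a3, an exchanger otherwise known from brain and skeletal muscle, had the largest fold of the 13 in the upward direction. It was at 7.75 and 16.4 CPM in controls and 18.9, 35.7 and 42.1 CPM after deletion (log2 fold change 1.42, SE 0.41, unadjusted p = 0.00988). The groups did not overlap, but Igf1r-deleted replicate 1 lay close to control replicate 2. Relative to its family the shift was from 9.82% and 16.6% of the exchanger level per kb in controls to 17.5%, 32.8% and 36.8% after deletion, while the summed level of the 3 exchangers per kb was 14.8 and 18.5 in controls and 20.2, 20.4 and 21.5 after deletion. The 5 smooth muscle markers summed to 299 and 452 CPM in controls and to 457, 650 and 472 CPM after deletion, with Des and Actg2 the 2 that passed the unadjusted test, both higher. Their part in the Slc8a3 and Kcnk3 values was not tested.

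Atp2a3, a reticulum pump found in blood cells, endothelium and epithelia, went the other way. It was at 36.7 and 40.5 CPM in controls and 29.2, 23.9 and 10.5 CPM after deletion (log2 fold change -0.86, SE 0.36, unadjusted p = 0.0447). Every deleted library was below both controls, and Igf1r-deleted replicate 3 was far below the other two. That library also had the lowest epithelial, endothelial and leukocyte marker sums of the 5 (389, 204 and 169 CPM), and their part in the Atp2a3 value was not tested. Without replicate 3 the log2 fold change was smaller at -0.54, with an unadjusted p = 0.0084 by edgeR's quasi-likelihood test. Without Igf1r-deleted replicate 2 it was -0.96, with an unadjusted p = 0.0592 by the same test. The share of Atp2a3 in the reticulum pump level per kb was 13.9% and 12.8% in controls and 9.85%, 7.38% and 3.37% after deletion, against 85.6% and 87.0% and then 90.0%, 92.2% and 96.0% for Atp2a2.

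**Figure D2:**
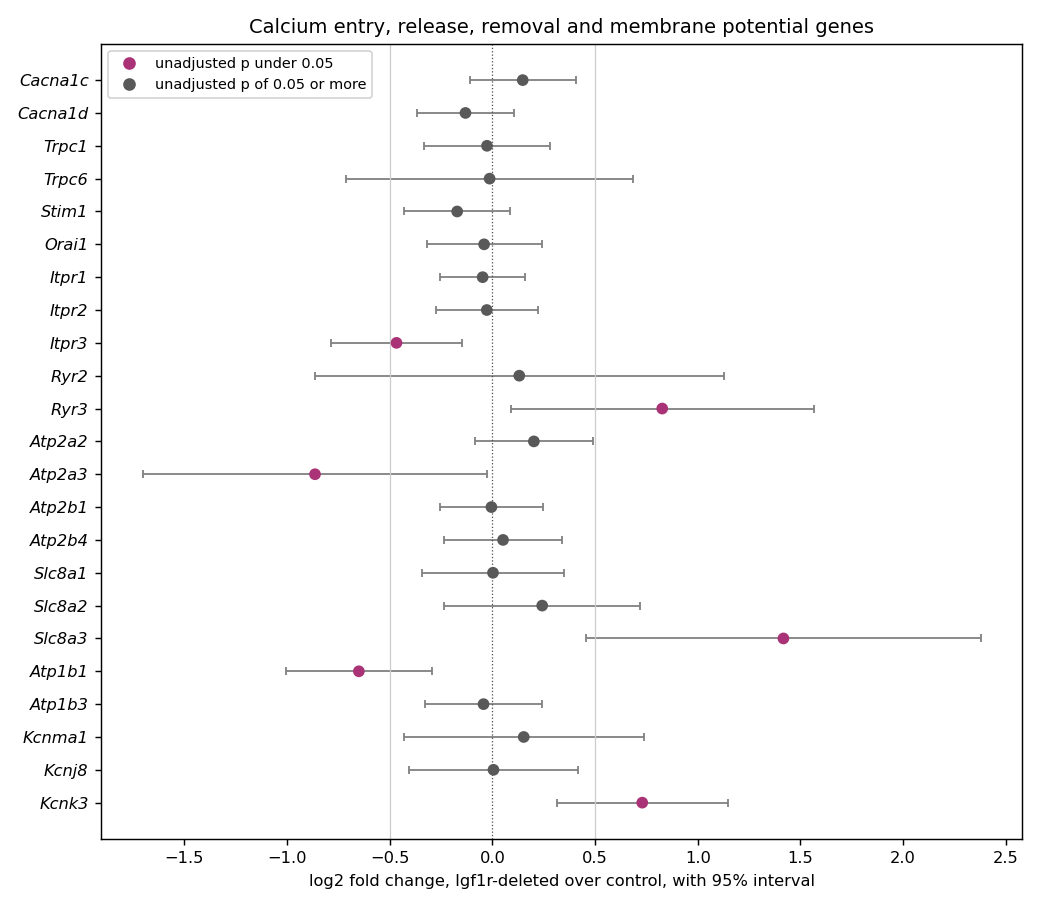
Log2 fold change (Igf1r-deleted over control, points) with its 95% interval (bars) for 23 genes of calcium entry, release, removal and membrane potential, with purple points for an unadjusted p-value under 0.05 and grey vertical lines at -0.5 and 0.5. Intervals of Cacna1c, Cacna1d, Itpr1, Itpr2, Atp2a2, Atp2b1, Atp2b4 and Slc8a1 stay between the grey lines, while Slc8a3 (1.42), Ryr3 (0.83), Atp2a3 (-0.86) and Itpr3 (-0.47) lie away from 0.

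Among potassium channels, tandem-pore leak channels (the Kcnk family) hold the resting potential. Of the 6, 2 passed the unadjusted test, in opposite directions. Kcnk3, an acid-sensitive leak channel known from pulmonary artery smooth muscle, was at 109 and 155 CPM in controls and 193, 217 and 247 CPM after deletion (log2 fold change 0.73, SE 0.18, unadjusted p = 0.00411). Kcnk5, an alkali-activated relative known from kidney epithelium and lymphocytes, was at 19.1 and 17.6 CPM in controls and 14.7, 8.90 and 6.96 CPM after deletion (log2 fold change -0.85, SE 0.29, unadjusted p = 0.0208). Neither gene overlapped between the groups. As a share of the family level per kb, Kcnk3 was 40.7% and 49.1% in controls and 55.0%, 60.4% and 60.6% after deletion, and Kcnk5 was 8.35% and 6.51% against 4.90%, 2.90% and 2.0%. The summed level of the 6 genes per kb was 67.2 and 79.4 in controls and 88.1, 90.3 and 102 after deletion.

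**Figure D3:**
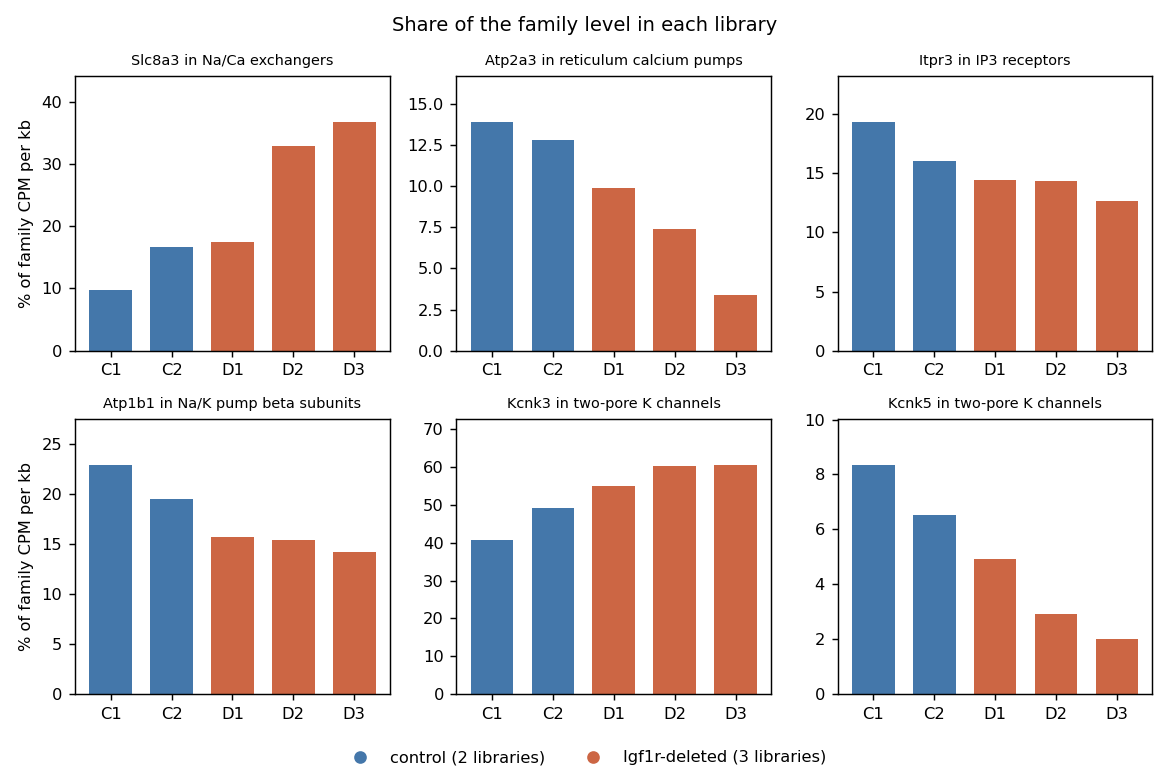
Share of the family's level per kilobase (percent, vertical axis, from 0) held by 6 genes in each library, with C1 and C2 for the controls and D1 to D3 for the Igf1r-deleted libraries. Slc8a3 and Kcnk3 hold more of their families in all deleted libraries than in controls, and Atp2a3, Itpr3, Atp1b1 and Kcnk5 hold less.

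Of the voltage-gated potassium channels, Kcna2, a low-threshold delayed rectifier, was at 152 and 85.1 CPM in controls and 80.8, 45.5 and 46.8 CPM after deletion (log2 fold change -1.04, SE 0.31, unadjusted p = 0.0118). The controls differed from each other more than control replicate 2 did from Igf1r-deleted replicate 1. Kcnh2, the rapid repolarizing channel of heart muscle, was at 83.8 and 91.8 CPM in controls and 95.8, 118 and 115 CPM after deletion, a small but non-overlapping difference (log2 fold change 0.32, SE 0.12, unadjusted p = 0.0327). The other 17 of this class did not pass the test, among them Kcns3, a silent modifier subunit and the most abundant per kb (-0.18, SE 0.10).

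Kcnn4, the calcium-activated channel of lymphocytes and proliferating fibroblasts, was at 2.10 and 1.34 CPM in controls and 0.963, 0.654 and 0.334 CPM after deletion (log2 fold change -1.40, SE 0.50, unadjusted p = 0.0264). These levels stood on 12 to 73 counts in a library, with all deleted libraries below the controls. Beside Kcnn4 and Kcnk5, the 6 leukocyte markers summed to 496 and 332 CPM in controls and to 395, 282 and 169 CPM after deletion, with overlapping groups. Of these markers 2 passed the unadjusted test, both lower (Cd68 and Cd79a), and the part of leukocyte RNA was not tested. Kcnma1, the large-conductance calcium-activated channel of smooth muscle, was low at 5.47 to 9.58 CPM with overlapping groups (0.15, SE 0.25), and so was Kcnn3 (-0.11, SE 0.29).

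The inward rectifier Kcnj8 was at 102 and 65.8 CPM in controls and 84.7, 86.2 and 81.8 CPM after deletion (0.0052, interval -0.41 to 0.42), so the 2 controls lay on either side of the deleted libraries. Its regulatory partner Abcc9, a sulfonylurea receptor outside the naming rule, was at 116 and 92.7 CPM in controls and 96.8, 61.9 and 66.2 CPM after deletion (-0.48, SE 0.20, unadjusted p = 0.0497), with overlapping groups. Kcne4, the most abundant gene of all, was at 363 and 255 CPM in controls and 298, 202 and 267 CPM after deletion (-0.27, interval -0.75 to 0.20).

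Among sodium channels, Scn7a held 77.0% to 83.0% of the sodium channel level per kb in every library. It was at 311 and 271 CPM in controls and 248, 226 and 199 CPM after deletion, lower in all 3 (log2 fold change -0.37, SE 0.13, unadjusted p = 0.0199). The summed level of the 9 sodium channel genes per kb went with it, 51.2 and 46.9 in controls and 41.2, 40.0 and 34.0 after deletion. No other sodium channel gene passed the test. Scn3b, an auxiliary subunit named here after its values were seen, was nearest at 31.3 and 36.1 CPM in controls and 20.4, 30.7 and 14.2 CPM after deletion (-0.63, SE 0.28).

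Atp1b1, the beta subunit that carries the sodium/potassium pump to the membrane and is typical of epithelia, had the smallest p-value of the 114. It was at 56.7 and 42.5 CPM in controls and 34.8, 32.0 and 27.9 CPM after deletion, without overlap (log2 fold change -0.65, SE 0.15, unadjusted p = 0.00337). The abundant beta subunit Atp1b3 was at 121 and 108 CPM in controls and 101 to 125 CPM after deletion. Atp1b1 held 22.9% and 19.5% of the beta subunit level per kb in controls and 15.7%, 15.4% and 14.2% after deletion. The 7 epithelial markers summed to 822 and 804 CPM in controls and to 577, 893 and 389 CPM after deletion, none of them passed the unadjusted test, and their part in the Atp1b1 value was not tested. Exons of Nme7 on the opposite strand cover 18.7% of the Atp1b1 exon length, and the library kit named in the labels is not described there as strand-specific, so reads of the shared stretch cannot be told apart.

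**Figure D4:**
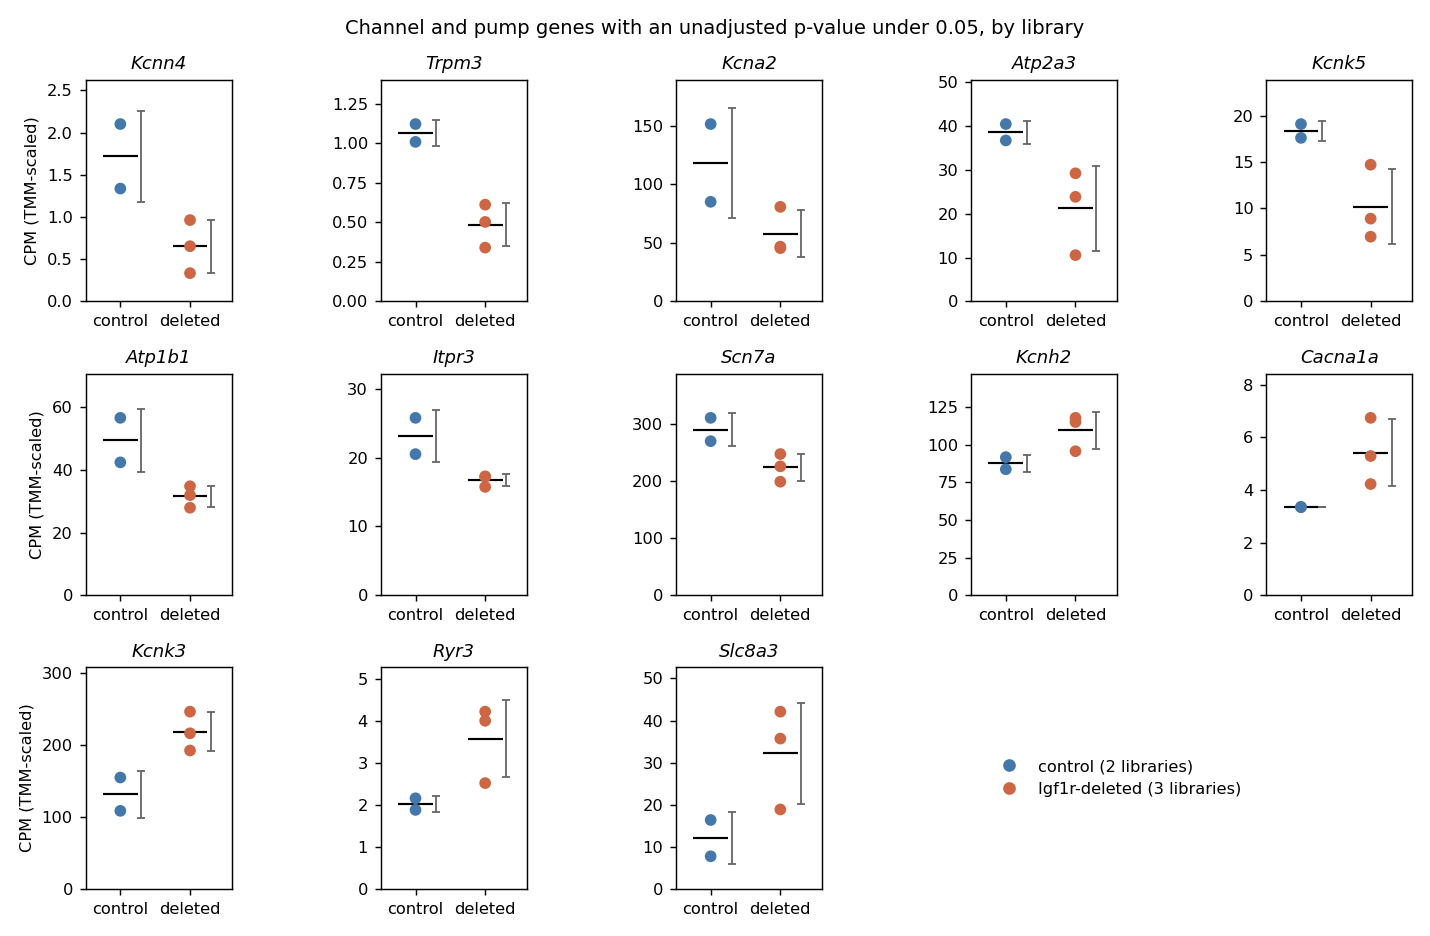
Level in each library (points, TMM-scaled CPM, vertical axes from 0) of the 13 genes with an unadjusted p-value under 0.05, ordered from the lowest to the highest log2 fold change, with the group mean (black line) and SD (grey bar) of 2 control and 3 Igf1r-deleted libraries. In each panel the groups do not overlap, and for Kcna2 and Slc8a3 a deleted library lies next to a control.

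The promoters of the genes of calcium removal and release and of the pump that passed the unadjusted test are shown because these genes passed it and the most abundant members of their families did not. RefSeq promoter windows (GRCm38.p6) were matched by symbol for 83 of the 114 genes and for 10 of the 13. Each sequence holds the 250 bases before the annotated start, and the 4 shown overlap no annotated exon. Capitals mark the GC box GGGCGG on either strand.
Slc8a3, chr12:81333181-81333430, minus strand: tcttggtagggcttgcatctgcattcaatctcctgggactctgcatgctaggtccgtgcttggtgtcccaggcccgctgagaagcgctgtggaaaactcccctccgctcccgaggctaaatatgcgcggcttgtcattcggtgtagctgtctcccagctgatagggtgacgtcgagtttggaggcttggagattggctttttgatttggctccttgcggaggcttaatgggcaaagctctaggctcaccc
Atp2a3, chr11:72960919-72961168, plus strand: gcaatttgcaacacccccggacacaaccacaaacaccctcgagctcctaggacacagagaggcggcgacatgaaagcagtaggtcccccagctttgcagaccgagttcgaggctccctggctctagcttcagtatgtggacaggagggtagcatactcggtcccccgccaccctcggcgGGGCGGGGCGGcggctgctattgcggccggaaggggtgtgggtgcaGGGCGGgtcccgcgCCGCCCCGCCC
Atp1b1, chr1:164458356-164458605, minus strand: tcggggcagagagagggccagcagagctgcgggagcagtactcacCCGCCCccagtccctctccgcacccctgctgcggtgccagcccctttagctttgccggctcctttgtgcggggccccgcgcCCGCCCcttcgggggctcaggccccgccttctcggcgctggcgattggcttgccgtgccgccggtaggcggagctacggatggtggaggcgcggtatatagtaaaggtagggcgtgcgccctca
Itpr3, chr17:27057054-27057303, plus strand: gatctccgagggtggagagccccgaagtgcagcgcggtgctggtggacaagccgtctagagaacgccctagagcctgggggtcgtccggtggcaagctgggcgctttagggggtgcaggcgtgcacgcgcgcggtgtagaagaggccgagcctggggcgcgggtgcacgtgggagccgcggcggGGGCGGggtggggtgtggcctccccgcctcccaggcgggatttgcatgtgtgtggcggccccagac
The Atp2a3 window held 5 GC boxes, the Atp1b1 window 2 and the Itpr3 window 1, and the Slc8a3 window held none. A GC box was in 41.7% of the 115 windows of channel and pump genes and in 32.7% of all 32851 windows. None of the 4 windows held the TEAD element CATTCC (12.6% of all windows), the forkhead element GTAAACA (3.17%), TATAAA (12.4%) or a CArG box (1.47%), searched on both strands. Among all 11 windows of genes that passed the unadjusted test, 2 held a TEAD element, those of Scn7a and Kcnn4. The share was 11.3% over the windows of channel and pump genes. The median GC content was 59.2% in the windows of channel and pump genes and 52.4% in all windows. The gene bodies lie at chr12:81197915-81333180 (Slc8a3), chr11:72961169-72993044 (Atp2a3), chr1:164437109-164458355 (Atp1b1) and chr17:27057304-27122223 (Itpr3) of mm10.

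Genes that work with these channels were counted from lists chosen with earlier results of these data known. Of 154 such genes tested, 17 were higher and 7 lower at an unadjusted p-value under 0.05, 15.6% in all beside the 12.4% of all genes. By direction, 5.65% of all genes were higher and 6.75% lower. Among 25 genes of calmodulin, calcineurin and NFAT, 5 were higher and 1 lower. Rcan1, an inhibitor of calcineurin that calcineurin signaling itself induces, was at 216 and 224 CPM in controls and 257, 294 and 283 CPM after deletion, without overlap (0.34, SE 0.10, unadjusted p = 0.0135). Calm2 (0.25, SE 0.10), Camk2a (0.52, SE 0.22), Nfatc4 (0.33, SE 0.12) and Cald1 (0.28, SE 0.12) were the others that were higher, and Camk2d (-0.37, SE 0.15) was lower.

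Of 21 genes of calcium stores, only Jph2, which ties the reticulum to the plasma membrane, passed the unadjusted test. It was at 108 and 163 CPM in controls and 194, 210 and 195 CPM after deletion (0.56, SE 0.17, unadjusted p = 0.013). Of 12 mitochondrial calcium genes, the uniporter pore Mcu was higher (0.37, SE 0.13) and the mitochondrial exchanger Slc8b1 lower (-0.30, SE 0.12). Among 29 other cation channel genes, 6 were higher, with the lysosomal channels Tpcn1 (0.34, SE 0.10) and Tpcn2 (0.60, SE 0.21) both among them, and the epithelial sodium channel subunit Scnn1a was lower at 34.6 and 16.5 CPM in controls and 15.6, 12.6 and 8.85 CPM after deletion. Of 31 chloride channel genes, 2 were higher and 3 lower, the latter including Ano6, a lipid scramblase, and Lrrc8a, the core of the volume-regulated anion channel (-0.36, SE 0.11). None of 9 genes of the FXYD and NKAIN families, listed with the sodium/potassium pump, passed. Of 23 exchangers and cotransporters, 2 were higher, and Abcc9 was the only one of 4 partners of inward rectifiers to pass. Leaving out control replicate 1 leaves 1 control library, so only log2 fold changes are given for it. Those of Jph2 (0.29), Scnn1a (-0.42), Slc8b1 (-0.12), Camk2d (-0.16), Cald1 (0.16), Calm2 (0.15), Mcu (0.22), Lrrc8a (-0.21) and Abcc9 (-0.31) were smaller by over 1.5 times. Without Igf1r-deleted replicate 2 or 3, 7 and 9 of these 24 genes kept an unadjusted p-value under 0.05.

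The calls and fold changes depended on which libraries were used, and not to the same degree for each gene. For 78 of the 114 genes control replicate 1 lay farther from the mean of the deleted libraries than control replicate 2 did. No share over all genes is given here, so that count is no result about channel genes. Of the 13 genes, 11 had control replicate 1 as the farther control. Without it 3 of the 114 had an unadjusted p-value under 0.05 (433 of all genes in place of 1897), and of the 13 genes Atp1b1 (log2 fold change -0.43) and Kcnk3 (0.49) were the 2 that stayed under it. Slc8a3 was then at 0.97, Kcna2 at -0.57 and Itpr3 at -0.30. Without Igf1r-deleted replicate 1, the library nearest to the controls for Kcna2, Kcnk5, Slc8a3 and Kcnk3, 23 of the 114 passed. The share of all genes that passed was then 21.0%. Without Igf1r-deleted replicate 2 it was 8 of the 114 beside 6.58% of all genes, and without replicate 3 it was 9 beside 7.3%. Of the 13 genes, 12, 6 and 8 stayed under the unadjusted threshold, in that order.

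The precision differed between abundant and rare genes. Among the 63 genes with at least 1000 counts summed over the libraries the median SE was 0.15, and among the other 51 it was 0.42. The 95% interval of the log2 fold change lay between -0.5 and 0.5 for 31 of the 114 genes, all among the 63, and between -1 and 1 for 61. For the other genes a log2 change of 1 was not excluded with these libraries.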

How the data were processed

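The authors deposited raw counts per gene for 5 libraries, made with Trim Galore (trimming), Bowtie2 (alignment to mm10) and GenomicAlignments (counting), and these counts were used without change. Alignment settings, annotation and strand use are not given in the sources used here. The test was the two-sided quasi-likelihood F test of edgeR 4.0.16 under R 4.3.3 (limma 3.58.1 for voom), with TMM factors of 0.961 to 1.06, filterByExpr by group, no term but genotype, and p-values adjusted after Benjamini and Hochberg over 15298 genes. The fit was tested on simulated data. DESeq2 1.42.0 gave no adjusted p-value for 3563 genes, 43 of them members. A permutation test of 2 against 3 libraries cannot go below p = 0.1. A count of 0 allows up to 3 counts, and such limits cover counting error only.

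Exon lengths, overlaps and positions came from GENCODE M21, in which 113 symbols matched directly and 1 by an older name. More than 10% of the exon length overlapped another gene for 9 members, and more than 5% of 31-base sequences were shared with another gene for 4 (Atp1b3, Scn3a, Scn2a1 and Trpc6), whose counts are less certain. Genes named are those with an unadjusted p-value under 0.05, the most abundant per kb of each class, a fixed set of calcium cycle genes and those nearest the count limit. The members and all lists were chosen with earlier results of these data known. Values of a few genes are not reported here. Likeness to Slc8a3 across libraries was not computed, since 5 libraries are too few. The alternatives were other tests, scalings, filters, a replicate block and leaving out each library.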

Additional observations from a re-analysis of the deposited data

How the results depend on the processing

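Over 9 processing alternatives, 293 of 315 fold changes of the 35 named members kept direction and side of the adjusted threshold, 18 changed sign and 4 came to pass it. Of the 114 genes, 2 had an adjusted p-value under 0.05 with DESeq2 and 2 with a replicate block (Slc8a3 and Kcna2), against 0 in the edgeR test; the other processing alternatives gave 0. The labels give both genotypes numbers 1 and 2, but nothing says that equal numbers share a litter or day, and with 2 pairs (correlations of deviations 0.209 and 0.1225) they were taken as names only. Igf1r-deleted replicate 3 has no control of its number, so with the block it adds nothing to the fold change. That fold change rests on replicates 1 and 2 of each genotype. With the block, 16 of the 114 had an unadjusted p-value under 0.05, beside 13.4% of all genes, and 10 of them were among the 13 (not Kcnn4, Ryr3 and Trpm3). Of all genes, 136 passed the adjusted threshold, and sign changes were seen at Kcnn3 (0.083), Orai1 (0.026) and Trpc6 (0.15). With library totals the median log2 fold change of the 114 was 0.11 (0.088 over all genes). Of the 114, 6 genes were then higher and 6 lower in place of 5 and 8, beside 13.6% of all genes called. The calls of Atp2a3 (unadjusted p = 0.0534) and Trpm3 (0.0556) ended. Trpc4ap (0.036), Atp2b1 (0.067), Itpr1 (0.025), Trpm7 (0.027), Itpr2 (0.047), Orai1 (0.033), Trpc1 (0.050) and Trpc6 (0.066) turned positive. Kcnj8 and Slc8a1 turned negative with DESeq2 (-0.0055 and -0.0074), with its size factors in edgeR (-0.0055 and -0.0074) and with at least 10 counts in every library (-0.0020 and -0.0040), and Atp2b1 turned positive with upper-quartile factors (0.0048). With robust empirical Bayes the call of Atp2a3 ended (unadjusted p = 0.0898). The cause of these shifts was not tested. With a log2 limit of 1 in place of 0.5, 4 genes met the criterion of the study and not 10. The share of all genes at that limit is not given here, so the count is no result about these genes as a group.

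Leaving out an Igf1r-deleted library gave 8 to 23 of the 114 genes with an unadjusted p-value under 0.05 and 0 with an adjusted one. Leaving out each of the 5 libraries gave a median log2 fold change of -0.014 to 0.053. In 153 of 175 fold changes the sign held. It turned at least once for Atp2b1 (-0.076 to 0.053), Atp2b4 (-0.077 to 0.18), Itpr2 (-0.098 to 0.020), Kcnj8 (-0.29 to 0.35), Kcnma1 (-0.20 to 0.60), Kcnn3 (-0.46 to 0.34), Orai1 (-0.11 to 0.022), Orai3 (-0.0016 to 0.11), Ryr2 (-0.32 to 0.77), Slc8a1 (-0.13 to 0.13), Trpc1 (-0.11 to 0.071), Trpc6 (-0.32 to 0.17) and Trpm7 (-0.12 to 0.0083), none of them among the 13.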
